A study of Mus musculus with 16 samples.

Results

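The core clock genes of mouse quadriceps were examined: Arntl, Clock and Npas2 of the activator arm, Per1, Per2, Per3, Cry1 and Cry2 of the PER and CRY repressor arm, and Nr1d1 and Nr1d2 of the REV-ERB repressor arm. The 10 genes were taken as a list, with no cut on their values but with earlier results of these data known. Every probe whose RefSeq accession matched 1 of them was kept. This gave 17 probes, out of 41174 probes and 17178 genes with a symbol on the array. Quadriceps RNA came from KLF15 KO mice given dexamethasone, KO mice given vehicle, WT mice given dexamethasone and WT mice given vehicle, with 4 animals and 4 arrays in each group. Dexamethasone, a synthetic glucocorticoid, was given as a single intraperitoneal injection of 2 mg/kg, and the tissue of every group was taken at 8 h per the labels. KLF15 is a zinc-finger transcription factor whose gene is induced by glucocorticoids. The sources used here do not give the strain, age or sex of the animals, the design of the KO allele, or the hour of day at injection and collection. The comparisons address whether the clock transcripts of muscle respond to a glucocorticoid, and whether loss of KLF15 alters that.

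In the mammalian clock, BMAL1 (the product of Arntl) pairs with CLOCK or NPAS2 and binds E-boxes in the genes of its own repressors. The PER and CRY proteins accumulate and block that pair, while the REV-ERB nuclear receptors (Nr1d1, Nr1d2) compete with ROR receptors at ROR elements and repress Arntl. A further loop runs through D-boxes, where DBP, TEF and HLF activate and NFIL3 represses. The clock of peripheral tissues, skeletal muscle included, is known to be set in part by glucocorticoids, and Per1 is a known direct glucocorticoid target in mouse tissues.

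The promoter windows of Arntl, Per3 and Nr1d1 are shown because these were the genes whose levels changed in at least 1 comparison below. Each runs from 250 bases before to 50 bases after a transcription start in RefSeq (GRCm38.p6), 5′ to 3′ on the gene's strand. For Arntl, with 2 listed starts, the window of the second is shown, since that of the first held no match, at chr7:113207261-113207560 on the plus strand. Per3 lies at chr4:151044616-151044915 and Nr1d1 at chr11:98775328-98775627, both on the minus strand. Capitals mark matches to the motifs searched, on either strand.
Arntl: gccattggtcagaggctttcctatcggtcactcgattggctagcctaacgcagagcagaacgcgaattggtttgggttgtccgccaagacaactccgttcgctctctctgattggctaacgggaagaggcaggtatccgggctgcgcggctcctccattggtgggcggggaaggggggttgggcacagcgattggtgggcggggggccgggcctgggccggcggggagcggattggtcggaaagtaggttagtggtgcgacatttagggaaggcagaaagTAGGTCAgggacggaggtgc
Per3: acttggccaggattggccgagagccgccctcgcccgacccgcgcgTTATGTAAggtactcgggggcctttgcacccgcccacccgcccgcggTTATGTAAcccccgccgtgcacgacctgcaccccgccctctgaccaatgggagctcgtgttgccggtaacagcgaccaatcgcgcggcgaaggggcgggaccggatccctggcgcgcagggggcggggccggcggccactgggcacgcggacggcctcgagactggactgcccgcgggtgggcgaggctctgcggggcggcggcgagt
Nr1d1: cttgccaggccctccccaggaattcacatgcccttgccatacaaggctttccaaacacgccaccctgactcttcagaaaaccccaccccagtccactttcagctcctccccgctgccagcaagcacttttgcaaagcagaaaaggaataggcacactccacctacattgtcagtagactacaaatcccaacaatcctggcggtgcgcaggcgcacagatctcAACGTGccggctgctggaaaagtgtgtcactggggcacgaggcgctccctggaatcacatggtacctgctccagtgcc

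The motifs searched were the E-box CACGTG, its variant CACGTT, the D-box TTANGTAA, the ROR elements TAGGTCA and TGGGTCA, and the palindromic glucocorticoid response element, an ACA and a TGT 3 bases apart with a G and a C each 1 base outside them. Both strands were searched, and no match overlapped another in these windows. The Arntl window held TAGGTCA, found in 2.61% of 32851 RefSeq promoter windows of the same length. The Per3 window held 2 copies of the D-box, at positions -205 to -198 and -158 to -151 from the start. The D-box was found in 2.32% of all windows. The Nr1d1 window held the E-box variant on its minus strand, found in 4.68% of windows. Among the other members, windows of Per1 and Cry1 held CACGTG (7.15% of windows), and those of Cry1 and Cry2 held CACGTT on the minus strand. The glucocorticoid element, found in 0.475% of windows, matched in no window of a member, and the windows of Clock, Npas2 and Nr1d2 held no match to any of the 6 motifs. A match describes letters in these windows and was not tested as a binding site.

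The arrays and labels were checked first. The share of spots well above background ran from 66.3% to 80.6% between arrays, and all 12 skeletal muscle markers were detected at that level on all 16 arrays. Klf15 averaged 0.51 ± 0.19 on KO dexamethasone arrays and 4.30 ± 0.36 on WT dexamethasone arrays, and -0.68 ± 0.50 on KO vehicle arrays and 3.29 ± 0.40 on WT vehicle arrays (log2 level, SD, n = 4 each). Fkbp5, a glucocorticoid target, rose 6.74-fold in KO and 7.90-fold in WT muscle with dexamethasone. Neutrophil markers (9 genes) were raised on KO dexamethasone replicate 1 and WT dexamethasone replicate 3, whose medians lay 5.72 and 7.11 above the mean of all arrays. The summed neutrophil level (log2) ranged from -2.28 to 6.61 in KO dexamethasone, from -1.35 to -0.80 in KO vehicle, from -1.96 to 7.90 in WT dexamethasone and from -1.92 to -0.61 in WT vehicle. Of the 9 markers 2 to 9 were well above background in KO dexamethasone, 4 to 5 in KO vehicle, 3 to 9 in WT dexamethasone and 3 to 6 in WT vehicle. Without these 2 arrays the change with dexamethasone was 1.08 (adjusted p = 0.00456) for Arntl and -1.02 (adjusted p = 0.0383) for Per3 in WT, and -1.60 (adjusted p = 0.0204) for Nr1d1 in KO, and Per3 in KO no longer passed, at -0.95 (adjusted p = 0.0535). The summed erythroid level (4 markers) was also highest on these 2 arrays, at 7.66 and 8.11, as was that of lymphocytes (6 markers), at 0.88 and 0.79. The summed level of macrophage markers (7 measured, all well above background on every array) ranged from 2.55 to 3.39 in KO dexamethasone and from 2.98 to 3.43 in KO vehicle, and from 2.52 to 2.92 in WT dexamethasone and from 3.19 to 3.71 in WT vehicle, where the groups did not overlap. Slow-fibre markers (7 measured) had medians of 0.11, 2.26, -0.57 and 0.83 from the mean of all arrays on WT dexamethasone replicates 1 to 4. On WT vehicle replicates 1 to 4 they were 0.74, -1.42, -1.31 and -1.35. They ran from -1.23 to 1.71 in KO dexamethasone and from -1.08 to 1.01 in KO vehicle. The part of these cell and fibre types in the dexamethasone results below was not tested, beyond leaving out the 2 arrays with raised neutrophil markers. On the leading principal component, with 34.2% of the variance, the arrays of slide 7 (KO dexamethasone 2, KO vehicle 1 and WT vehicle 3) and WT dexamethasone replicate 1 lay away from all others. Where leaving out slide 7 and WT dexamethasone replicate 1 ended the call of a member, the value without them is given below.

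All 17 probes passed the filter, which asked for detection above background on 4 or more of the 16 arrays, and 15 were well above background on all arrays. The exceptions were the Npas2 probe, on 6 arrays, and the dimmer Cry1 probe, on 14. No probe was saturated. A level is log2 of the probe's intensity minus the array's 75th percentile, so 0 is that percentile and 1 unit is a factor of 2. Levels of different probes are not set against each other. For the 5 genes with several probes the brightest stands for the gene. Values are given for replicates 1 to 4 in that order.

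Arntl encodes BMAL1 and was the member with a called difference both between treatments and between genotypes. Its levels were -0.23, -0.09, -0.13 and 0.20 on KO dexamethasone arrays, and -0.67, -0.10, -0.62 and -0.95 on KO vehicle arrays. They were 0.90, 1.20, 1.03 and 1.00 on WT dexamethasone arrays, and 0.07, -0.25, 0.14 and -0.17 on WT vehicle arrays. All 4 WT dexamethasone arrays lay above the other 12. In order, WT dexamethasone was highest, WT vehicle and KO dexamethasone overlapped with means of -0.05 and -0.06, and KO vehicle was lowest. KO vehicle still overlapped KO dexamethasone, through replicate 2 of KO vehicle.

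**Figure D1:**
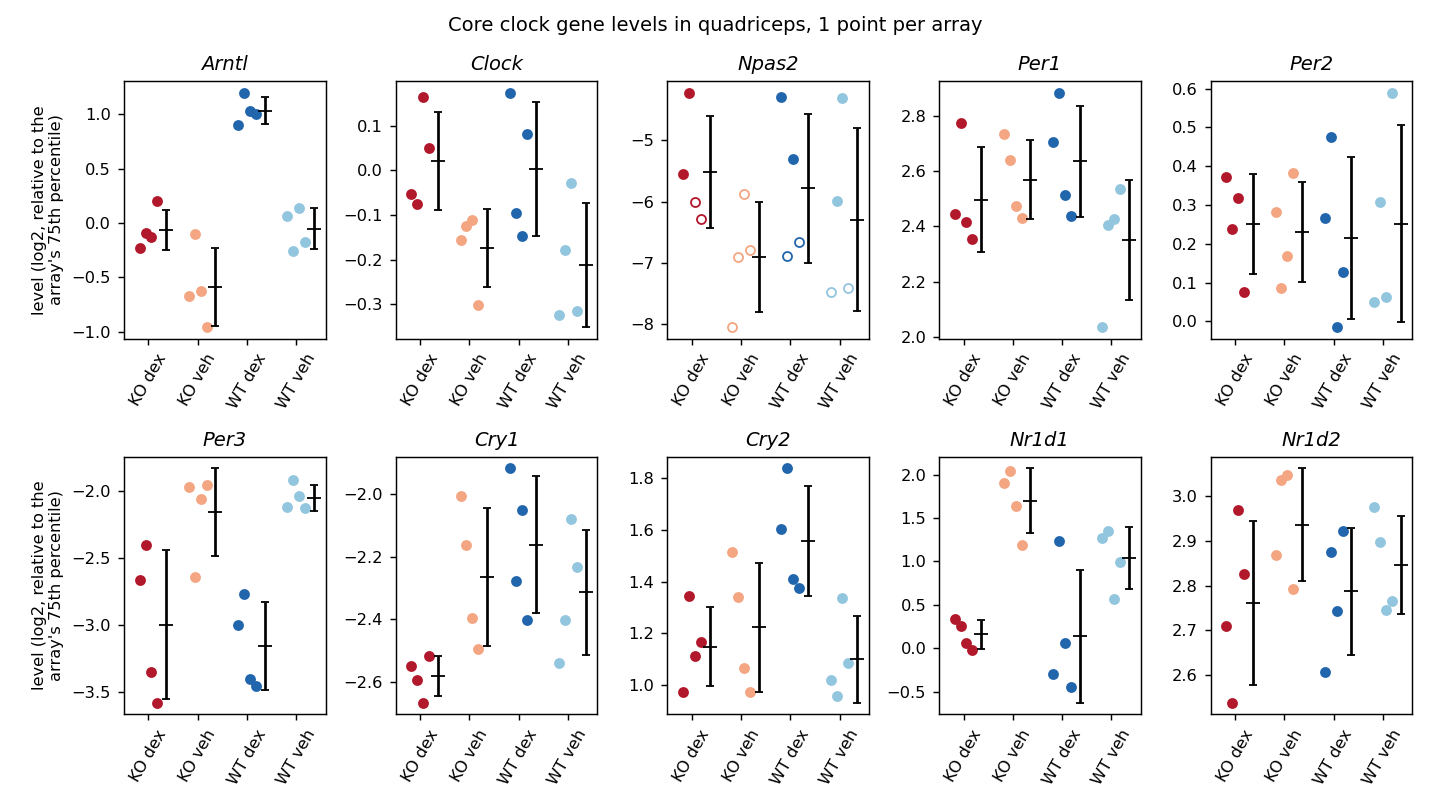
Level of each core clock gene (log2 relative to the array's 75th percentile, y axis, own scale per gene) on each of 16 arrays, by group (x axis: KO dexamethasone, KO vehicle, WT dexamethasone, WT vehicle), 1 point per array, replicates 1 to 4 from left to right. Open points are below the scanner's limit for well above background; bars are mean and SD of 4 arrays. Arntl stands highest in WT dexamethasone (0.90 to 1.20), Per3 is lower in both dexamethasone groups, and Nr1d1 is lower in KO dexamethasone (-0.02 to 0.34) than in KO vehicle (1.19 to 2.05).

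In WT muscle 2 of the 10 genes passed the threshold with dexamethasone, Arntl higher and Per3 lower, where 10.7% of 25201 features passed (5.04% higher, 5.64% lower). Arntl rose 2.12-fold (log2 change 1.08, SE 0.16, limma adjusted p = 0.000879, n = 4 arrays a group). The rise was present on the slide that held both WT groups, where the difference was 1.37. The groups of 3 members did not overlap (Arntl, Per3 and Cry2), where those of 17.1% of features did not. Since this is whole muscle, fewer cells of a type and less RNA per cell cannot be told apart here or in any result below.

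In KO muscle the Arntl difference with dexamethasone was 0.52 (SE 0.16, adjusted p = 0.0597) and did not pass. On slides 4, 6 and 7, which held both KO groups, the differences were 0.72, 0.82 and 0.58. It passed with slide as a random block (0.62, adjusted p = 0.00179) and as a fixed block (0.73, adjusted p = 0.00752), and also without KO vehicle replicate 2 (0.69, adjusted p = 0.00868), the array that lay among the KO dexamethasone values and was alone on its slide. The difference between the responses of KO and WT was -0.56 (SE 0.23, unadjusted p = 0.0301, adjusted p = 0.390), so the responses were not shown to differ.

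Between genotypes, Arntl was the only 1 of 10 members past the threshold, and only under dexamethasone and in the average of both treatments. Under dexamethasone it was 2.13-fold lower in KO than in WT (log2 change -1.09, SE 0.16, adjusted p = 0.00295), where 1.85% of features passed and 0.821% were lower. The groups did not overlap, and on slide 8, the slide that held both, the difference was -1.13. Averaged over treatments Arntl was 1.76-fold lower in KO (-0.81, SE 0.12, adjusted p = 0.00193), where 1.33% of features passed and 0.96% were lower. Without slide 7 and WT dexamethasone replicate 1 both calls ended, at adjusted p = 0.0502 and 0.0582 with log2 changes of -1.13 and -0.79.

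Under vehicle none of the 10 members passed between KO and WT by limma, where 0.262% of features passed. Arntl had the lowest p of the 10, at -0.53 (SE 0.16, unadjusted p = 0.00586, adjusted p = 0.383). Within slides 4, 6 and 7 its difference was -0.70, -0.69 and -0.81. With slide as a random block 1 member passed, Arntl (log2 change -0.61, adjusted p = 0.0192). No member's groups were without overlap under vehicle, where those of 6.36% of features were. The other 9 ranged from -0.61 (Npas2) to 0.65 (Nr1d1).

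**Figure D2:**
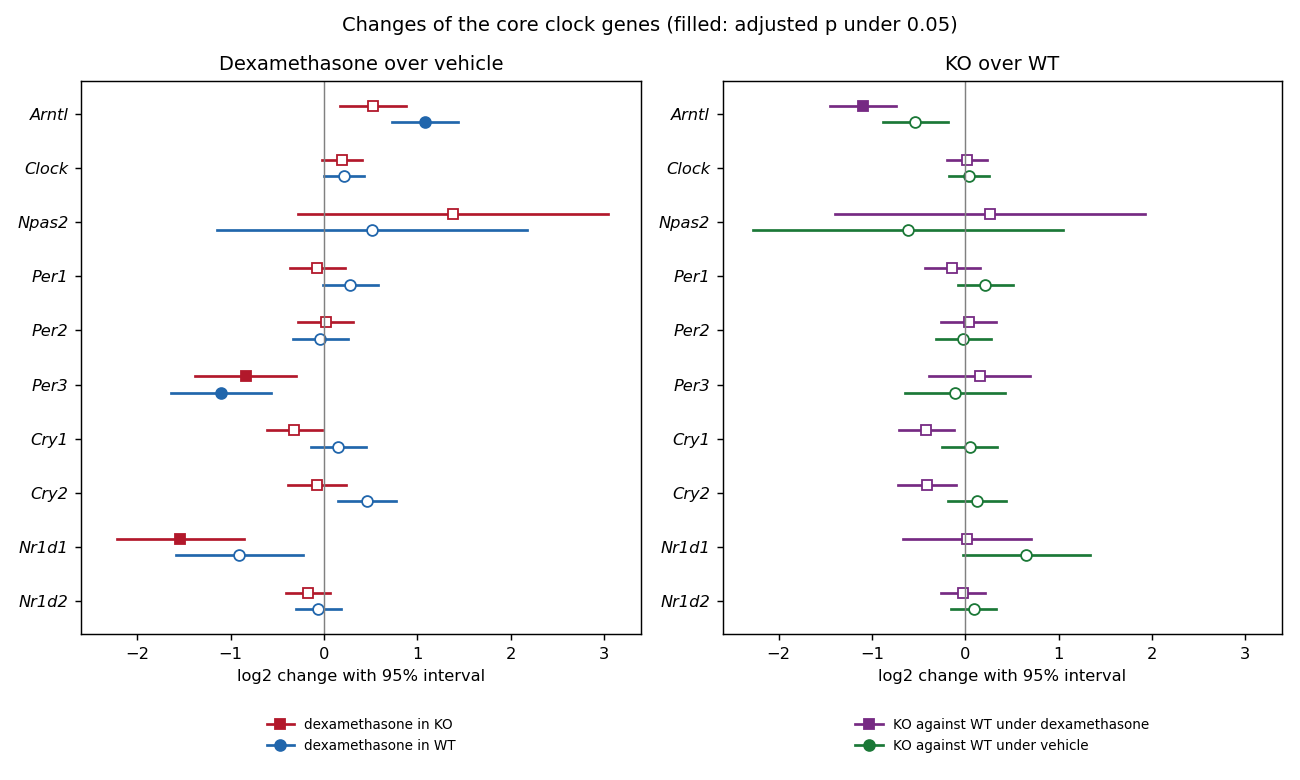
Log2 change (x axis) of each core clock gene (y axis) with its 95% interval, for dexamethasone over vehicle in KO and in WT muscle (left panel) and for KO over WT under dexamethasone and under vehicle (right panel). Filled symbols have an adjusted p under 0.05: Per3 and Nr1d1 in KO, Arntl and Per3 in WT, and Arntl for KO against WT under dexamethasone.

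CLOCK is the usual partner of BMAL1. Its brightest probe gave -0.05, -0.08, 0.16 and 0.05 on KO dexamethasone arrays and -0.16, -0.12, -0.11 and -0.30 on KO vehicle arrays. The groups did not overlap, but the difference of 0.19 (SE 0.10, adjusted p = 0.294) did not pass. In WT muscle the values were 0.17, -0.10, -0.15 and 0.08 with dexamethasone and -0.32, -0.18, -0.03 and -0.31 with vehicle, a difference of 0.21 (SE 0.10, adjusted p = 0.204). The dimmest of the 3 Clock probes, A_52_P161365, gave another answer in KO muscle. It read -4.10, -3.76, -3.63 and -3.57 on KO dexamethasone arrays and -4.80, -4.53, -4.48 and -4.51 on KO vehicle arrays, with no overlap. Tested with every probe as a feature, where 10.5% of 32422 probes passed, it rose by 0.82 (SE 0.13, adjusted p = 0.000979). In WT muscle the same probe differed by 0.29 (adjusted p = 0.168), where 12% of probes passed, and the third Clock probe passed in neither genotype (0.11 in KO, 0.44 in WT). The sources used here do not say which transcripts each probe reads.

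Npas2 encodes the alternative partner of BMAL1 and was near the limit of detection. It was well above background on 2 KO dexamethasone arrays, no KO vehicle array, 2 WT dexamethasone arrays and 2 WT vehicle arrays. The mean was -5.52 in KO dexamethasone and -6.90 in KO vehicle, and -5.78 in WT dexamethasone and -6.29 in WT vehicle. The differences with dexamethasone did not pass (adjusted p = 0.353 in KO and 0.733 in WT), nor did that of KO and WT under vehicle (adjusted p = 0.900). No fold is given, because some or all arrays of each group were not well above background. Levels ran from -7.47 to -4.31 in WT vehicle alone, so no order of the groups is given.

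Among the PER and CRY genes, Per3 was the member that fell with dexamethasone in both genotypes. PER3 is the third PER protein, less needed for rhythm in mice than PER1 and PER2. On KO dexamethasone arrays its level was -2.66, -2.40, -3.35 and -3.58, against -1.97, -2.64, -2.06 and -1.96 on KO vehicle arrays. The KO groups overlapped, since KO vehicle replicate 2 lay below KO dexamethasone replicate 2. On WT dexamethasone arrays Per3 was at -3.00, -2.77, -3.40 and -3.45, against -2.12, -1.92, -2.03 and -2.13 on WT vehicle arrays, with no overlap.

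Per3 was 1.79-fold lower in KO muscle with dexamethasone (log2 change -0.84, SE 0.25, adjusted p = 0.0482), and in WT muscle it was 2.15-fold lower (-1.10, SE 0.25, adjusted p = 0.0120). In KO muscle 2 of 10 members passed, Per3 and Nr1d1, both lower, where 10.2% of features passed (5.69% higher, 4.55% lower). The groups of 3 members did not overlap in KO muscle (Clock, Cry1 and Nr1d1), where those of 15.9% of features did not. The fall in KO lay near the threshold and passed in 12 of 32 alternative analyses. Without slide 7 and WT dexamethasone replicate 1 it was -0.98 (adjusted p = 0.0756). The fall in WT did not pass with slide as a fixed block (-0.77, adjusted p = 0.200) or with normexp background correction (-0.38, adjusted p = 1.000). Within slides the differences were -0.71, -1.52 and -0.43 in KO (slides 4, 6 and 7) and -0.64 in WT (slide 5). Averaged over genotypes Per3 fell by 0.97 (SE 0.18, adjusted p = 0.00147), and the response did not differ between genotypes by a called test (0.26, SE 0.35, adjusted p = 0.824). By mean, both vehicle groups stood above both dexamethasone groups, and KO overlapped WT within each treatment.

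Per1, a light- and glucocorticoid-responsive repressor, did not pass in any comparison. Its levels ranged from 2.35 to 2.78 in KO dexamethasone, from 2.43 to 2.73 in KO vehicle, from 2.44 to 2.88 in WT dexamethasone and from 2.04 to 2.54 in WT vehicle. The difference with dexamethasone was -0.07 in KO (95% interval -0.37 to 0.22) and 0.28 in WT (95% interval -0.01 to 0.58, adjusted p = 0.228). All 4 groups overlapped.

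Per2, the other PER protein needed for rhythm, had group means between 0.21 and 0.25 with its brightest probe. Dexamethasone minus vehicle was 0.02 in KO (95% interval -0.27 to 0.32) and -0.04 in WT (95% interval -0.33 to 0.26). The second probe spread more widely within groups and gave -0.50 in KO and -0.58 in WT, neither past the threshold (adjusted p = 0.775 and 0.639).

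The cryptochromes Cry1 and Cry2 carry the repression of CLOCK and BMAL1. Their brightest probes separated KO from WT muscle under dexamethasone without passing the test. Cry1 was at -2.55, -2.59, -2.67 and -2.52 on KO dexamethasone arrays and -1.92, -2.28, -2.05 and -2.40 on WT dexamethasone arrays. Cry2 was at 0.97, 1.34, 1.11 and 1.17 on KO dexamethasone arrays and 1.60, 1.84, 1.41 and 1.37 on WT dexamethasone arrays. Every KO array lay below every WT array for both genes, as it did for Arntl, which makes 3 of 10 members whose groups did not overlap, where the groups of 7.88% of features did not. The differences were -0.42 for Cry1 (SE 0.14, adjusted p = 0.164) and -0.41 for Cry2 (SE 0.14, adjusted p = 0.204), and on slide 8 they were -0.26 for each.

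Under vehicle, where Cry1 was at -2.01, -2.16, -2.40 and -2.49 in KO and -2.54, -2.40, -2.08 and -2.23 in WT, the groups overlapped. So did those of Cry2, at 1.51, 1.34, 1.07 and 0.97 in KO and 1.02, 0.96, 1.34 and 1.08 in WT. With dexamethasone, Cry1 differed by -0.32 in KO (adjusted p = 0.194) and 0.15 in WT (adjusted p = 0.532). Cry2 differed by -0.07 in KO (adjusted p = 0.858) and 0.46 in WT (adjusted p = 0.0596). The test of the difference between these responses gave -0.47 for Cry1 (unadjusted p = 0.0305, adjusted p = 0.391) and -0.53 for Cry2 (unadjusted p = 0.0210, adjusted p = 0.366). The dimmer probes of both genes showed no such difference under dexamethasone, at -0.05 for Cry1 and 0.14 for Cry2 (adjusted p = 0.988 and 0.773).

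Over the 10 members, 3 had an unadjusted p under 0.05 for the difference between KO and WT in the dexamethasone response (Arntl, Cry1 and Cry2, all negative), and 0 passed by limma. The share of all features with an unadjusted p under 0.05 was not counted, so these 3 are not set against it. Over all 25201 features 0% passed, so this test called nothing on any gene. With slide as a random block it called 310 features, and with array weights 4, but no member in either.

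Nr1d1 encodes REV-ERBα, the main repressor of Arntl. It was at 0.34, 0.26, 0.06 and -0.02 on KO dexamethasone arrays and 1.90, 2.05, 1.64 and 1.19 on KO vehicle arrays, with no overlap. It was at -0.30, 1.24, 0.06 and -0.45 on WT dexamethasone arrays and 1.27, 1.35, 0.56 and 0.99 on WT vehicle arrays. WT dexamethasone replicate 2 lay among the WT vehicle values and the other 3 lay below them. By mean, KO vehicle (1.70) was followed by WT vehicle (1.04), KO dexamethasone (0.16) and WT dexamethasone (0.14); only the vehicle and dexamethasone groups of KO were separated by a called test within a genotype.

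Nr1d1 was 2.90-fold lower with dexamethasone in KO muscle (log2 change -1.54, SE 0.32, adjusted p = 0.00661). In WT the difference was -0.91 (SE 0.32, adjusted p = 0.0895), and without WT dexamethasone replicate 2 it passed at -1.27 (adjusted p = 0.00419). That array was also the only WT dexamethasone array to share a slide with WT vehicle, and the difference there was 0.25, of the opposite sign. Within slides 4, 6 and 7 the KO differences were -0.86, -1.66 and -1.64. The fall in KO did not pass with slide as a fixed block (-1.27, adjusted p = 0.0729) or without the 3 arrays that the scanner software marked for evaluation (-1.50, adjusted p = 0.0692). The response was not shown to differ between genotypes (-0.63, SE 0.45, adjusted p = 0.608). Averaged over genotypes Nr1d1 fell 2.33-fold (-1.22, SE 0.22, adjusted p = 0.00159).

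The 3 Nr1d1 probes did not give the same result. In KO muscle the dimmer probes changed by -0.91 (A_52_P130952, adjusted p = 0.207) and 0.41 (A_52_P130961, adjusted p = 0.824) with dexamethasone, and in WT muscle by -0.48 and -0.74 (adjusted p = 0.487 and 0.538). The mean of the 3 probes changed by -0.68 in KO (adjusted p = 0.374). The fall of Nr1d1 therefore rests on its brightest probe, A_51_P223776. Nr1d1 is known to overlap Thra on the opposite strand at its 3′ end, and whether these probes read both genes was not tested.

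Nr1d2 encodes REV-ERBβ. All its levels lay between 2.54 and 3.05, and it did not pass in any comparison. With the deposited log2 values it passed in the average over genotypes (-0.21, adjusted p = 0.0461). With dexamethasone it differed by -0.17 in KO (95% interval -0.41 to 0.06) and -0.06 in WT (95% interval -0.30 to 0.18).

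**Figure D3:**
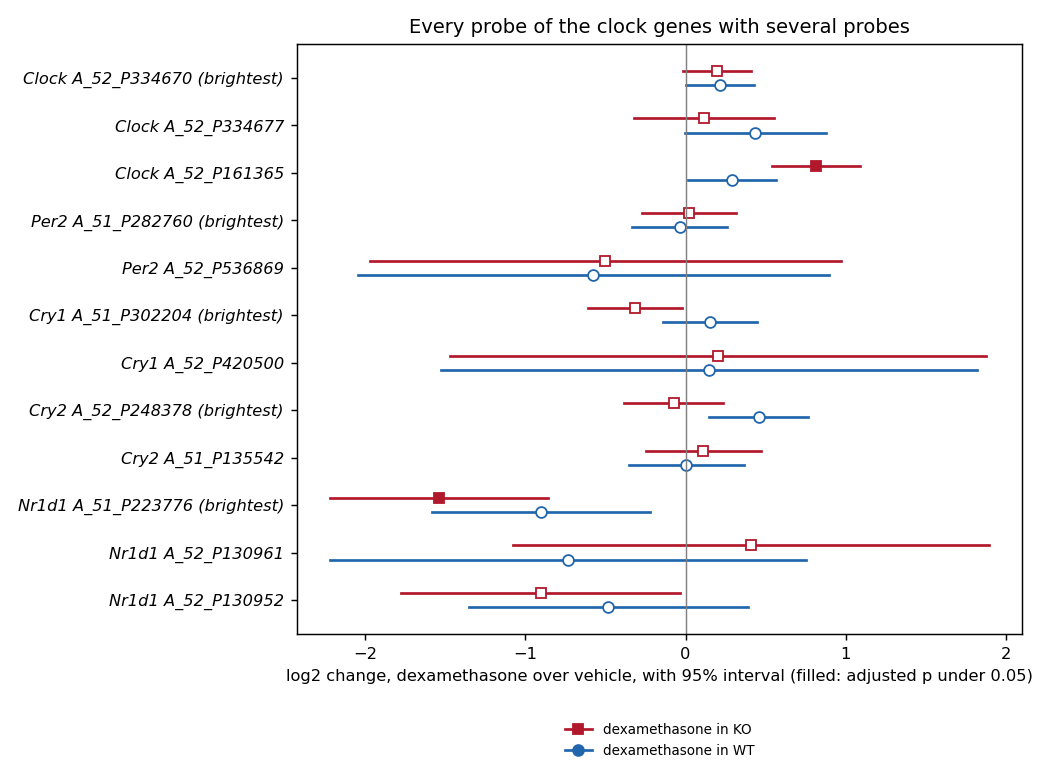
Log2 change with dexamethasone over vehicle (x axis) and 95% interval for every probe of the 5 clock genes with more than 1 probe (y axis), in KO and in WT muscle. Filled symbols have an adjusted p under 0.05 over 32422 probes. The 3 Nr1d1 probes range from -1.54 to 0.41 in KO muscle, and the dimmest Clock probe rises by 0.82 in KO.

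By arm, the medians of the log2 change with dexamethasone over the 3 activator genes were 0.52 in KO and 0.51 in WT. The middle gene was Arntl in KO and the dim Npas2 in WT, so the WT median is the difference of a gene near the limit of detection. Over the 5 PER and CRY genes they were -0.07 in KO and 0.15 in WT, and over the 2 REV-ERB genes -0.86 in KO and -0.48 in WT. The REV-ERB medians lie midway between 2 unlike genes. Nr1d1, by its brightest probe, changed by -1.54 in KO and -0.91 in WT, and Nr1d2 by -0.17 and -0.06. The medians over all features were 0.08 in KO and -0.08 in WT. Averaged over genotypes, where 17.2% of features passed (9.04% higher, 8.17% lower), 1 of 3 activator genes rose (Arntl, 1.75-fold), 1 of 5 PER and CRY genes fell (Per3, 1.96-fold) and 1 of 2 REV-ERB genes fell (Nr1d1, 2.33-fold). The dimmest Clock probe rose by 0.55 in this average (adjusted p = 0.000637), where 18.1% of probes passed, while the brightest differed by 0.20 (adjusted p = 0.0629).

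Further lists hold factors coupled to the core loop. Of 7 output and E-box factors, 1 rose and 4 fell with dexamethasone in KO muscle, and 1 rose and 3 fell in WT muscle, where 10.2% of features passed in KO and 10.7% in WT. Nfil3, the D-box repressor, rose 2.55-fold in KO (adjusted p = 0.000343) and 2.86-fold in WT (adjusted p = 0.000186). Dbp, the D-box activator, was at 5.06 ± 0.16 in KO dexamethasone and 6.16 ± 0.15 in KO vehicle, and at 5.01 ± 0.26 in WT dexamethasone and 6.25 ± 0.22 in WT vehicle (log2 level, SD, n = 4 each). It fell 2.13-fold in KO and 2.36-fold in WT (adjusted p = 0.000334 and 0.000162). Bhlhe41, an E-box repressor, fell 2.83-fold in KO and 2.15-fold in WT, and the D-box activator Hlf fell 1.36-fold in KO and 1.40-fold in WT. Bhlhe40 fell in KO alone by the threshold (1.39-fold, adjusted p = 0.0376), but its response did not differ between genotypes by a called test (adjusted p = 0.794). Tef and Ciart passed in neither genotype.

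The ROR receptor gene Rora, an activator of Arntl, did not pass with dexamethasone, with differences of -0.02 in KO and 0.15 in WT, and Rorb was too dim to test. Arntl2, which encodes BMAL2, was well above background on no WT dexamethasone array and all 4 WT vehicle arrays, with measured means of -6.59 and -5.44. By these means it was 2.23-fold lower with dexamethasone in WT (adjusted p = 0.0470), and it differed by -0.50 in KO (adjusted p = 0.488). The fall in WT did not pass with slide as a fixed block, with a replicate block, under median or quantile scaling, or without the arrays with raised neutrophil markers.

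Of 18 kinases, ligases and co-factors, 17 were tested. With dexamethasone 3 rose and 2 fell in KO, and 1 rose and 2 fell in WT, against the same 10.2% and 10.7% of all features. Timeless, whose product binds checkpoint and clock proteins, fell 2.94-fold in KO (adjusted p = 2.77e-05) and 1.66-fold in WT (adjusted p = 0.00753). Fbxw11, a ligase subunit that acts on PER proteins, rose 1.59-fold in KO and 1.38-fold in WT (adjusted p = 0.00406 and 0.0338). In KO, Sirt1 (a deacetylase) rose 1.47-fold and Noct (a rhythmic phosphatase) 1.57-fold, while Cipc, an inhibitor of CLOCK, fell 1.49-fold. In WT, Csnk1e, a kinase of PER proteins, fell 1.33-fold. Without the 2 arrays with raised neutrophil markers, 3 of the 5 calls in KO and 1 of the 3 in WT remained, while all 5 and all 4 calls of the output and E-box factors did. None of the differences between genotypes in these responses passed, and no gene of the 3 lists passed between KO and WT under vehicle, under dexamethasone or averaged.

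**Figure D4:**
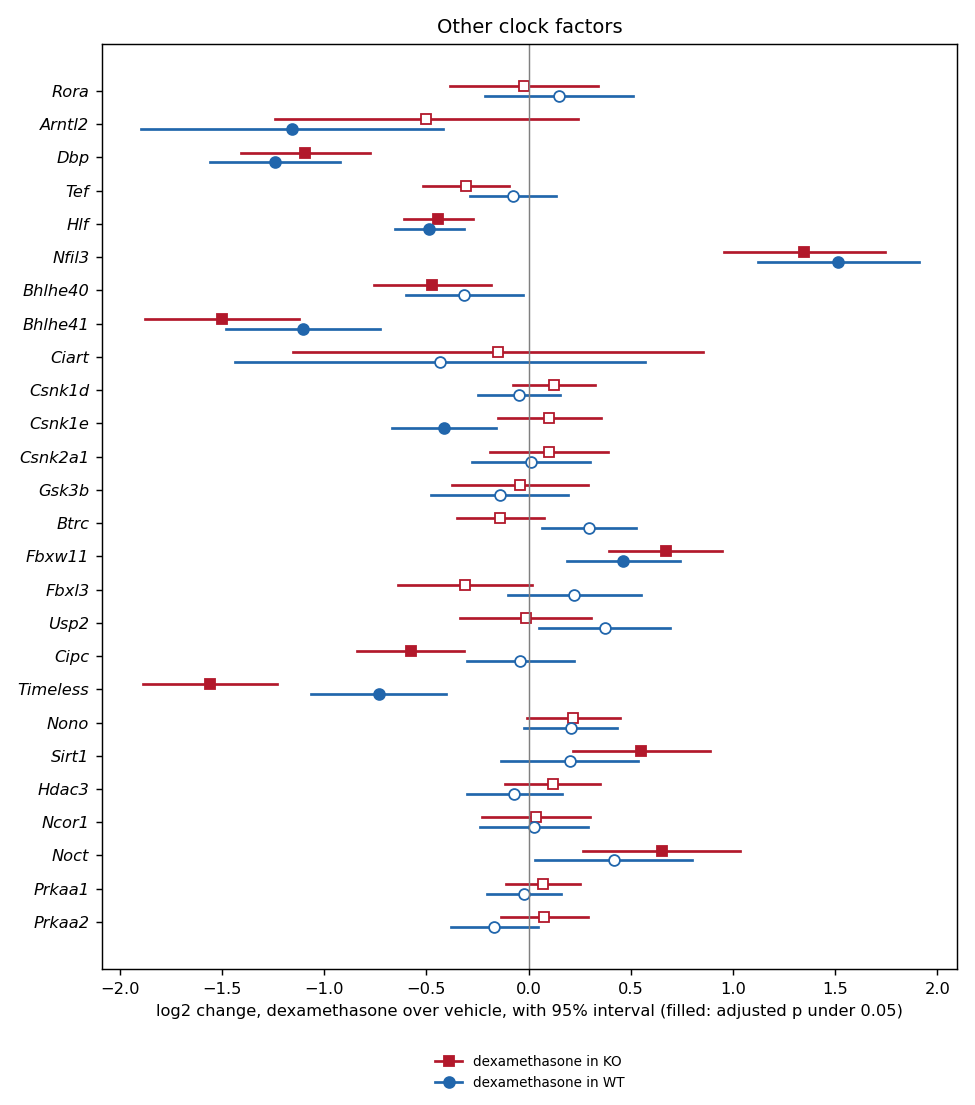
Log2 change with dexamethasone over vehicle (x axis) and 95% interval of further clock factors (y axis), in KO and in WT muscle; filled symbols have an adjusted p under 0.05. Nfil3 is higher and Dbp, Hlf, Bhlhe41 and Timeless are lower in both genotypes.

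Animals of 1 group can differ from each other in a shared way, so the deviations from group means were correlated between members over the 16 arrays, for 45 pairs. No pair passed after adjustment, and 3 had an unadjusted permutation p under 0.05. The highest was Per1 with Cry2 (Pearson r = 0.728, permutation p = 0.00501, adjusted p = 0.225; Spearman rho = 0.732, permutation p = 0.00455, adjusted p = 0.205). Without the 2 arrays farthest from the median of Per1, r was 0.759. Arrays of a slide also deviated together, with correlations between 0.188 and 0.794 over 11 same-slide pairs, so a shared slide and a shared animal state cannot be told apart here.

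Over the 16 arrays, the genes with levels most like those of Arntl among 15136 genes searched were Oat (r = 0.945), Dap3 (0.932) and Ggnbp2 (0.929). For Per3 they were Gbp5 (0.952), Tspyl3 (0.950) and Cmtm5 (0.946), and for Nr1d1 they were Slc9a8 (0.962), Ccrl2 (0.921) and Fscn1 (0.906). For the other 7 members the highest correlation ranged from 0.785 (Per2 with Olfr981) to 0.938 (Cry1 with Plekho2). These correlations describe arrays that share groups and slides, and carry no test.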

How the data were processed

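RNA of 16 quadriceps samples was hybridised to 1-colour arrays, 1 per animal, on 8 slides. WT dexamethasone replicate 3 was alone on its slide and was the only array scanned on another day. Its 75th percentile of intensity was the lowest, at 554, where the highest was 1169. The effect of the scan day was not tested. Groups and replicate numbers come from the sample titles. Per the labels' protocols, cDNA was amplified from lysate and labelled with Cy3. Per the file headers, the deposited intensity values were extracted with Feature Extraction 10.7.3.1, background-subtracted and detrended within each array, and not normalized between arrays. The authors also deposited a log2 table of the same arrays, whose column medians lie between 6.85 and 6.87. It ranks probes as the scanner's median signal does, and its centring is unknown here.

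Log2 intensity minus each array's 75th percentile was used, without control spots and outlier spots. Probe accessions were matched to RefSeq symbols (GRCm38.p6), which named 24844 of 41174 probes. Probes well above background on fewer than 4 arrays were dropped, and the brightest probe of a gene was kept. For Arntl2, the signals of the dim group were set against each array's lowest detected signal, and none lay below it. The fold given for it is therefore that of the measured means and not a bound.

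In R 4.3.3, limma 3.58.1 fitted 4 group means to all 16 arrays, with eBayes and Benjamini-Hochberg adjustment over 25201 features (two-sided, threshold 0.05). The fit took the arrays as independent, although the consensus correlation within slides was 0.574, and slide was a block only in alternatives. Every adjusted p given for a difference between groups comes from that fit, or where stated from its alternatives, and intervals are unadjusted. Named genes are all members, Klf15, Fkbp5, every member of the other clock lists that passed, and the 3 genes most like each member. Rora, Tef, Ciart and Bhlhe40 in WT are mentioned beyond that rule. The members and lists were chosen with earlier results of these data known, and 1 list member is not reported here. The fit was tested on simulated arrays with independent noise and no slide effect, so that test does not cover arrays that deviate together. Correlations used 100000 permutations of arrays within groups. Per2 was not searched for motifs.

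Same-numbered arrays of different groups did not deviate together (24 pairs, correlations from -0.663 to 0.663), so the numbers were not taken as pairs. Alternatives changed the scaling, background correction, filter, probe rule, slide and replicate blocks, array weights and the arrays included. The number of arrays limits the precision.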

Additional observations from a re-analysis of the deposited data

Results flagged for a closer look

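In KO vehicle muscle, replicate 2 lay far below the other 3 arrays for 2 probes. Per3 was at -2.64 on that array (log2 level), against -2.06 for the nearest other array, and the dimmer Per2 probe was at -4.09, against -2.07. Its gap to the nearest array, as a share of the group's range, was 0.847 for Per3 and 0.953 for Per2, above Dixon's critical value for 4 samples. In all 68 groups of 4 arrays (17 probes, 4 groups) were examined this way, and chance alone flags about 1 in 20. The brightest Per2 probe was also lowest on that array, at 0.09, against 0.17 to 0.38 on the other 3. The array was alone on its slide. It is also the KO vehicle array with the highest Arntl level, and without it 3 members passed with dexamethasone in KO muscle.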

How the results depend on the processing

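No called gene reversed direction under the alternatives as they were counted. With every probe as a feature, the probe with the lowest p stood for its gene, so its other probes were not counted. The Nr1d1 probe A_52_P130961 changed by 0.41 with dexamethasone in KO, against -1.54 for the brightest probe. Of 2203 gene values recomputed, 2145 kept their side of the threshold, 33 no longer passed and 25 newly passed. Most of these values belonged to results without a call in the main fit, and the 33 losses could fall only on called ones. With dexamethasone in WT, where 2 members passed, 1 passed with slide as a fixed block, 4 with array weights and 0 with normexp on the median spot and background signals, a correction chosen after seeing the data in place of normexp on mean signals, which was not run because the files used here hold no such column. With dexamethasone in KO, where 2 passed, 1 passed with slide as a fixed block, under normexp, without the filter on dim probes, without the arrays with raised neutrophil markers, without slide 7 and WT dexamethasone replicate 1, and with only the groups compared, and 0 passed without the 3 arrays marked for evaluation. Under vehicle 1 member passed between genotypes with slide as a random block, against 0 otherwise. For KO against WT under dexamethasone and averaged over treatments, 0 passed under normexp and 0 without slide 7 and WT dexamethasone replicate 1, against 1 each. Averaged over genotypes 5 passed with slide as a random block and 2 with slide as a fixed block or under normexp, against 3; Nr1d1 lost its call with the fixed block (-0.86, adjusted p = 0.143) and with the mean of all its probes (-0.69, adjusted p = 0.111), and Per3 under normexp (-0.41, adjusted p = 0.816). The cause of these shifts was not tested. Leaving out 1 array at a time gave 2 to 3 members with dexamethasone in WT, 1 to 3 in KO (3 without KO vehicle replicate 2), 0 between genotypes under vehicle, 1 under dexamethasone, 1 averaged over treatments, 3 to 4 averaged over genotypes and 0 for the interaction.

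With the replicate number as a block, 1 member passed with dexamethasone in KO (Per3 had adjusted p = 0.0691), and no other count of members changed. Normexp called 165 features with dexamethasone in WT, against 2692. Scaling each array to its median moved the median change of all features in that comparison to 0.17, against -0.08, and 1824 of 2202 calls were then higher, against 1271 of 2692. Adjusted p for Arntl in WT passed in 31 of 32 alternatives, for Nr1d1 in KO in 29 of 32 and for Per3 in KO in 12 of 32. For Nr1d1, the alternative with every probe as a feature used its brightest probe again. Signal over background limits Npas2 and the dimmer Cry1 probe, which were not well above background on every array. The dimmer probes of Per2 and Nr1d1 were well above background on all 16 arrays. Levels of all these probes spread widely within groups, and the cause of that spread was not tested.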
